A study of Mus musculus with 36 samples.

Results

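Broad domains of H3K27 acetylation in the forelimb of wild-type mouse embryos were defined as intervals of at least 10000 bp that peaks of all 4 wild-type libraries covered without a break. There were 78 such domains among 26921 intervals common to the 4 lists. They held 1.11 Mb of the 52.8 Mb of common sequence, or 2.11%. Widths in the wild-type lists chose the domains, so widths and scores in wild type are a description and were not tested. What the knockout lists held at the same places was not used in the choice.

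H3K27ac, acetylation of lysine 27 of histone H3, marks active promoters and enhancers. Most marked stretches in a tissue are short, and a few run on for many kilobases, often over clustered enhancers or over genes that give a cell its identity. In the limb bud, homeobox genes of the HoxA and HoxD clusters and transcription factors such as Tbx5, Hand2 and Shox2 are known to be active and to pattern the outgrowing forelimb. No gene annotation of mm9, the genome build of the lists, was used here, so the domains are named by position and none is assigned to a gene.

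The libraries are ChIP-seq of pooled forelimbs at embryonic day 11.5 of strain FVB, dissected from untreated wild-type embryos or from embryos null for 1 limb enhancer. The deleted enhancer was hs72 or mm1179, or 1 of hs1603, hs1586, hs1467 and hs1262. There were 4 wild-type libraries, 4 of mm1179 and 2 of each other line, each with its own peak list. Wild type and mm1179 share strain, stage and tissue with the other lines and differ in the deleted enhancer. The labels do not say how many embryos entered a pool, nor whether libraries came from separate litters, so p-values measure only the spread between libraries, which may be technical. The whole limb was used, and more cells of a marked type and more signal per cell cannot be told apart.

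A tag attached to the lists divided the libraries into 4 sets, called runs 1 to 4 here. Run 1 held replicates 1 and 2 of WT and mm1179, and run 2 held replicates 3 and 4 of both with the 2 hs72 libraries. Run 3 held replicate 1, and run 4 replicate 2, of hs1262, hs1467, hs1586 and hs1603, and neither run held wild type, so for these lines a difference from wild type cannot be told apart from one between runs. The run 3 lists stand apart from the others at the broad domains, and results are given with and without them. Read counts are not part of the lists, and the depth is therefore unknown. A domain without a peak is one where no call was made.

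The broad domains were between 10017 and 53496 bp wide, with a median of 11971 bp. The median of all 23584 common intervals of at least 1 kb was 1808 bp. Few domains were far above the limit. There were 40 of 10 to under 12 kb, 19 of 12 to under 15 kb, 10 of 15 to under 20 kb and 9 of 20 kb or more. Just inside the limit lay domains of 10017, 10045 and 10062 bp, on chromosomes 3, 5 and 2, and just outside it lay intervals of 9951, 9916 and 9875 bp, on chromosomes 8, X and 13.

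Each of the 78 domains lay within a single peak in each of the 4 wild-type lists. For the median domain the narrowest wild-type peak was 12091 bp wide and the widest 15222 bp. The widest peak exceeded the narrowest 1.14-fold in the median domain and 3.99-fold at most, at the domain chr7:149753510-149765421, singled out after its values were seen. The narrowest peak came from WT replicate 1 at 33 domains and from WT replicate 3 at 28, and from WT replicates 2 and 4 at 9 and 8.

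The domains were spread over all autosomes and the X chromosome, with none on the Y chromosome. Chromosome 3 had the most, 9 domains, or 0.713% of its common intervals of at least 1 kb, against 0.331% over the genome. Chromosomes 2 and 6 had 7 each (0.373% and 0.528%), and chromosome 6 held the most domain sequence, 12.2% of the total. Chromosome 7, with 1498 common intervals, had 2 domains (0.134%), and chromosome 16 had 1 of 793 (0.126%). In all, 16 of the 78 domains (20.5%) lay within 100 kb of another, as 8 pairs. The closest pair was on chromosome 1, where domains of 20052 and 28510 bp between 163903426 and 163957056 (mm9) were 5069 bp apart. A second pair followed on the same chromosome, between 164109053 and 164156918, and a pair on chromosome 5 ran from 120244832 to 120298533.

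**Figure D1:**
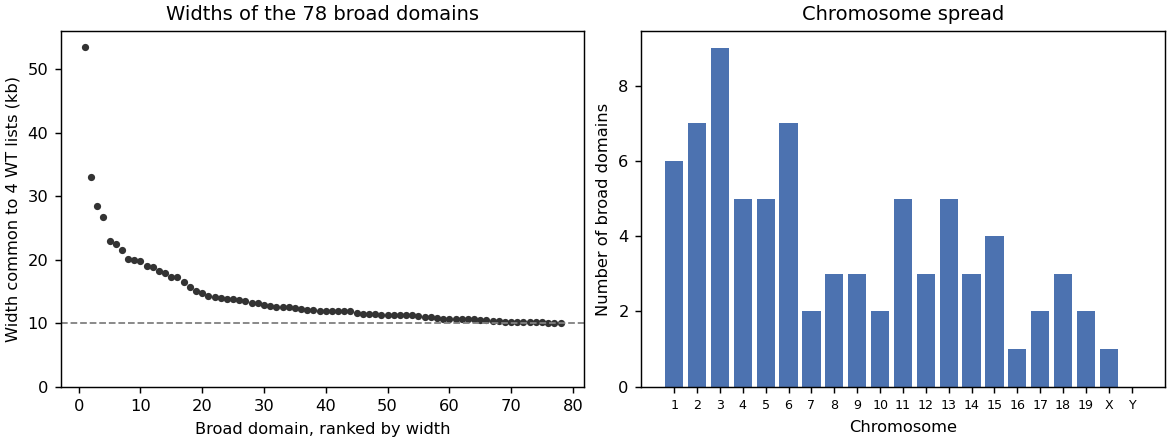
Left, width in kb of each of the 78 broad domains against its rank, with the limit of 10 kb as a dashed line; 1 domain of 53496 bp stands above all others. Right, number of domains on each chromosome; chromosome 3 has 9 and the Y chromosome 0.

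The widest domain was chr6:52165436-52218931 (mm9), of 53496 bp. It was 1.62 times as wide as the next. In each wild-type list a single peak of 53715 to 54281 bp spanned the domain, with a score of 3100. Scores are the authors' own values for each peak, and many strong peaks share the value of 3100.

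In the mm1179 libraries, 99.4%, 97.9%, 99.6% and 100% of the bases of this domain were covered in replicates 1 to 4, and in the hs72 libraries 100% and 99.1%. The 4 run 4 libraries covered all of it. In these 10 libraries the domain was thus nearly whole, with small breaks in mm1179 replicates 1, 2 and 3 and hs72 replicate 2. In run 3 it was covered to 0% in hs1262, hs1467 and hs1603 and to 14.9% in hs1586, where 1 peak of 8507 bp with a score of 535 lay at its end.

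**Figure D2:**
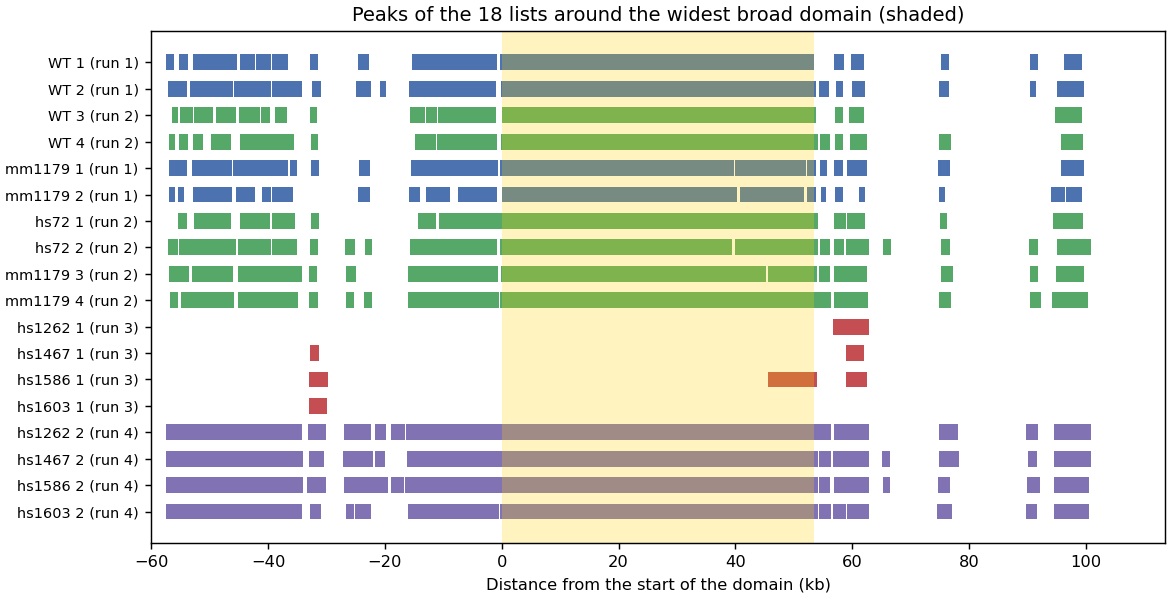
Peaks of the 18 lists (bars, coloured by run) within 60 kb of the widest broad domain (shaded), by distance in kb from its start; the score is not shown. Peaks run through the shaded stretch in 14 libraries, while the 4 run 3 libraries have a single peak at its right end, in hs1586.

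The second widest domain, chr2:74506325-74539362, was 33038 bp wide. Outside run 3 it was covered to 99.8% in mm1179 replicate 1 and to 100% in each of the other 9 knockout libraries. In run 3 it was covered to 100% in hs1467 and to 0% in hs1262, hs1586 and hs1603. The score of the hs1467 peak there was 685, whereas it was 3100 in all wild-type and run 4 lists.

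The third, chr1:163928547-163957056, of 28510 bp, was covered to 100% in all 10 knockout libraries outside run 3. In run 3 it was covered whole in hs1262 and hs1467 and not at all in hs1586 and hs1603. Its partner 5069 bp away, chr1:163903426-163923477, had the same pattern in run 3, and elsewhere its lowest value was 95.1%, in mm1179 replicate 2. The domain chr1:164135452-164156918, of 21467 bp, was the widest with a peak in all 14 knockout lists, and its lowest share was 98.5%, in mm1179 replicate 2.

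The domains chr7:149717157-149743838, of 26682 bp, and chr13:23834511-23857544, of 23034 bp, were each missing from the run 3 lists of hs1262, hs1586 and hs1603 and covered whole in hs1467. The hs1467 peaks there scored 376 and 126, whereas the 4 wild-type lists had scores of 2831 to 3100 at the first and 3100 at the second. Outside run 3 the second was covered to 99.2% or more, with its lowest share in mm1179 replicate 2, and the lowest share of the first was in mm1179 replicate 3. The domain chr5:120276038-120298533, of 22496 bp, was covered to 95.6% in mm1179 replicate 2 and to 99.9% or more in the other 9 libraries outside run 3. In run 3 it was covered whole in hs1467 and hs1586 and had no peak in hs1262 and hs1603.

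The other 4 of the 12 widest were chr2:33482441-33502477, chr6:30614132-30633993, chr8:59790163-59809145 and chr11:11719908-11738727. The one on chromosome 8 was covered to 99.3% or more in the 10 knockout libraries outside run 3. It had no peak in any of the 4 run 3 lists. Its score was 3100, 3220, 3230 and 3100 in WT replicates 1 to 4.

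The broad domains ranked near the top of each wild-type list by score. Each domain was given the percentile, within a list, of the highest-scoring peak that overlapped it, with 100 as the top. The median percentile over the 78 domains was 99.1, 99.1, 99.4 and 99.2 in WT replicates 1 to 4. In these lists 59, 63, 58 and 68 domains reached a score of at least 3100, which 1.66%, 1.62%, 1.08% and 1.59% of all peaks reached. Since so many strong peaks share that score, the percentile cannot order the domains at the top. Width and score did not always go together. The domain chr2:33482441-33502477, the ninth widest, scored 2639, 2929, 474 and 2104 in WT replicates 1 to 4, and 474 was the lowest score of any domain in WT replicate 3.

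In the knockout lists the domains also ranked high. The median percentile lay between 98.5 and 99.5 in the mm1179 and hs72 libraries and between 96.5 and 96.9 in run 4, where 5.89% to 6.73% of all peaks scored at least 3100, and peaks tied at the top share a lower percentile. In run 3 the median over the domains with a peak was 97.8 in hs1603, 96.0 in hs1586, 98.0 in hs1467 and 97.8 in hs1262. The median score of these peaks was 1031, 600, 1315 and 1021 in the same order, against 3100 in every other library. Scores of different lists depend on depth and are not compared further. Leaving out chromosome 18, where 1 further domain had the same mean percentile, the 5 domains with the highest mean percentile over the knockout lists all had 98.6 and a peak in all 14 lists, and 4 of them had not been among the 12 widest or their close partners. They were chr10:125402027-125412219, chr2:165698413-165715658, chr6:30487216-30505481 and chr12:88228176-88242248. The other, chr1:164109053-164119972, lies 15479 bp from the domain of 21467 bp named above. These 5 scored 3100 in every knockout list outside run 3, as did many other domains, so the run 3 scores largely set this choice. Lists without a peak at a domain were left out of its mean.

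Outside run 3 the knockout libraries kept nearly all of the domain sequence. The share of domain bases covered was 99.47%, 97.61%, 99.92% and 99.99% in mm1179 replicates 1 to 4, or 99.25% ± 1.11 (SD, n = 4). It was 99.69% and 99.86% in the hs72 libraries, or 99.77% ± 0.12 (SD, n = 2). In run 4 it was 99.98% in hs1603 and, to 2 decimals, 100% in hs1262, hs1467 and hs1586. Every domain had a peak in each of these 10 libraries. Among the 10, mm1179 replicate 2 was the lowest, and it also had the fewest peaks, 30719, and the least covered sequence, 62.6 Mb.

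Of the 78 domains, 73 were covered to at least 90% in all 10 knockout libraries outside run 3, against 53.0% of all common intervals of at least 1 kb. The 5 others fell below 90% in mm1179 replicate 2 alone, where they were covered to between 85.6% and 89.0%. The lowest of them, named for that reason after its values were seen, was chr2:172754043-172766522, and the lowest share of any domain in the other 9 libraries was 93.8%. With run 3 included, 30 of 78 were covered to at least 90% in all 14 knockout libraries, against 27.5% of the common intervals. A loss of a given length is a larger share of a narrower interval, and the median common interval was 1808 bp wide. Width alone can therefore lower both background shares. A peak in all 4 run 3 lists was less frequent in the domains, at 42.3% against 55.3% of the common intervals.

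In runs 1 and 2, where 38494 bp of domain sequence were lost over 6 libraries, no domain was missing as a whole. Trimming at the ends of domains made up 49.1% of the loss, and the rest lay in breaks inside them. In mm1179 replicate 2, 27 domains were split by such breaks, in mm1179 replicate 1, 13, and in the other 4 libraries between 1 and 7. In run 4, 211 bp were lost in all.

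Wild-type libraries cover all of the domains by the rule, so mm1179 and wild type were compared on domains defined anew from 3 wild-type lists at a time, each wild-type library being scored on the domains of the other 3. There were 79 to 93 such domains. Wild-type libraries covered 98.16%, 99.51%, 98.81% and 99.80% of their bases, or 99.07% ± 0.73 (SD, n = 4), and mm1179 libraries 99.27%, 97.13%, 99.88% and 99.97%, or 99.06% ± 1.33 (SD, n = 4). The groups overlapped. The difference, -0.008 percentage points, was within the spread of the libraries (two-sided exact permutation over 70 arrangements, p = 1). The sign turned with the run, the difference being -0.64 points in run 1 and 0.62 in run 2, where 2 libraries against 2 cannot pass the threshold. It also turned with the library left out, and without mm1179 replicate 2 the difference was 0.638 points, with an exact permutation p of 0.371.

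**Figure D3:**
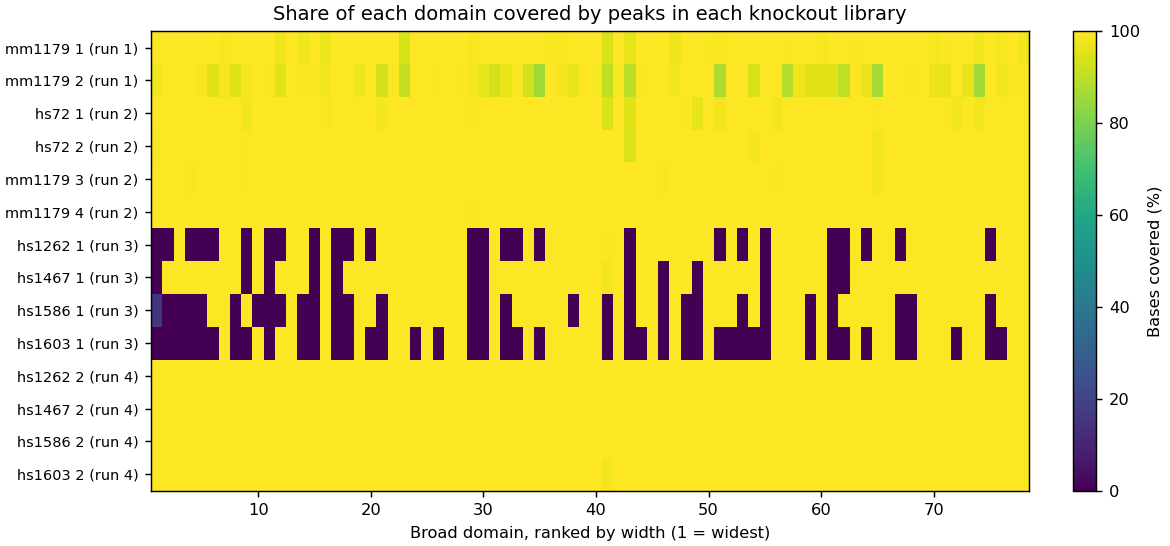
Percent of the bases of each broad domain (columns, widest at the left) covered by peaks in each of the 14 knockout libraries (rows, with the run). Outside run 3 the lowest value is 85.6%, while in the 4 run 3 libraries domains are either covered in full or not at all, with few exceptions.

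In the run 3 libraries the domains were kept or missing as wholes. The share of domain bases covered was 41.16% in hs1603, 55.05% in hs1586, 60.17% in hs1262 and 80.23% in hs1467, each of replicate 1. With both replicates the means were 70.57% ± 41.59, 77.52% ± 31.78, 80.09% ± 28.16 and 90.11% ± 13.98 (SD, n = 2 each). Replicate 1 alone was low in each line.

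The domains without any peak numbered 42 in hs1603, 29 in hs1586, 26 in hs1262 and 13 in hs1467. As a share of the 78 domains this was 53.8%, 37.2%, 33.3% and 16.7%. Over all 23584 common intervals of at least 1 kb, intervals without a peak made up 40.3%, 32.5%, 28.9% and 28.8% in the same lists. The shares in hs1586 and hs1262 were near that background, that in hs1603 was above it and that in hs1467 below it, and these differences were not tested. The domains covered whole numbered 36, 48, 51 and 64. There were 3 cases between the extremes, the widest domain in hs1586 and chr7:149753510-149765421, which was covered to 99.5% in hs1262 and 98.4% in hs1467. Missing whole domains made up 97.5% of the domain bases lost in run 3.

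Where a run 3 list had a peak at a domain, its median width over the domains called was 16243 bp in hs1603, 15258 bp in hs1586, 16100 bp in hs1262 and 15592 bp in hs1467, and the median ratio to the mean wild-type peak at the same domain was 1.18, 1.17, 1.14 and 1.11. In hs1262, 46 of 52 called domains lay in a peak wider than in any wild-type list, and in hs1603 34 of 36. Peaks wider than in wild type were not particular to run 3. In run 4 the median ratio was 1.13 to 1.25, with 64 to 75 of 78 domains in a peak wider than in any wild-type list, and in mm1179 replicate 4 it was 1.12, with 61 of 78. Peaks of at least 10 kb over the whole genome numbered 116 to 200 in the wild-type lists, 83 to 318 in the mm1179 and hs72 lists, 301 to 401 in run 3 and 422 to 693 in run 4.

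Of the 78 domains, 33 (42.3%) had a peak in all 4 run 3 lists, 9 in 3 of them, 15 in 2, 13 in 1 and 8 (10.3%) in none. Over the common intervals 55.3% had a peak in all 4 and 21.9% in none. The domains missing from all 4 lists were between 10703 and 18983 bp wide. Leaving out chromosome 18, which holds 1 of the 8, the 5 domains kept least over the 14 knockout lists were among them. They were chr8:59790163-59809145, described above, chr3:66773528-66790833, of 17306 bp, chr16:4649182-4662358, chr2:165972365-165985194 and chr8:110066744-110078626. Domains both with the common top score and below it were missing. At chr3:66773528-66790833 the score was 3100 in each wild-type list, while at chr8:110066744-110078626 it was 1824, 2238, 1645 and 2850 in WT replicates 1 to 4. The median width was 13003 bp over the 8 domains in none of the 4 lists and 11658 bp over the 33 in all of them.

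Common intervals of every score were missed in run 3. In run 3, between 6.99% and 40.6% of the 429 intervals with a mean wild-type percentile of at least 99 had no peak, and between 26.8% and 49.5% of those from 90 to 95. In the 10 other knockout lists none of the 429 lacked a peak, and at most 0.0512% of those from 90 to 95 did. In mm1179 replicate 2, which missed the most intervals of the 10, 34.2% of those below percentile 50 and 6.70% of those from 50 to 75 had no peak. The narrower intervals within 50 kb of a domain were called more often beside a domain that the same list called than beside one that it missed, at 69.1% and 46.2% in hs1603, 69.8% and 61.6% in hs1586, 76.5% and 56.9% in hs1262 and 84.7% and 49.5% in hs1467. These shares are descriptions over intervals of 1 library each. What made the run 3 lists differ was not tested.

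**Figure D4:**
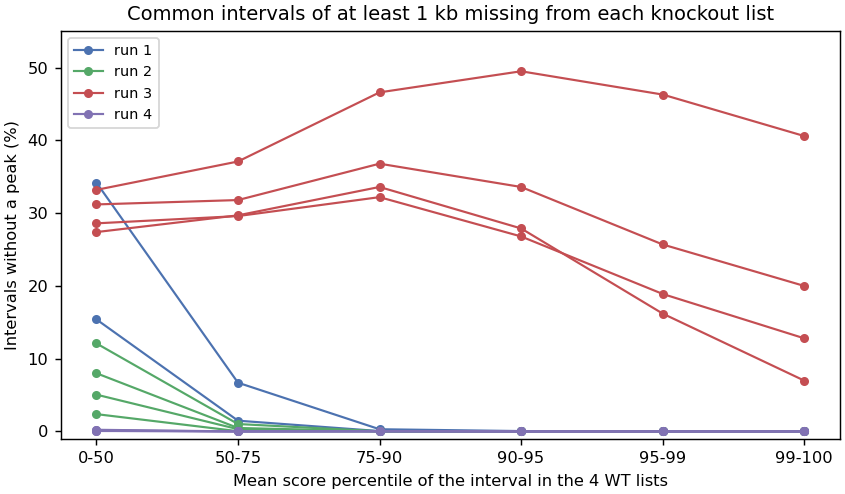
Percent of common intervals of at least 1 kb without a peak in each knockout list (lines, coloured by run), by mean score percentile of the interval in the 4 wild-type lists. In runs 1, 2 and 4 the share falls to 0 at high percentiles, while in run 3 it stays between 6.99% and 40.6% at percentiles of 99 and above.

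The broad domains were compared with the 23506 common intervals of 1 to under 10 kb in each knockout library, so that both values of a pair come from 1 list. The share of bases kept was higher in the broad domains in all 10 libraries outside run 3, by 2.32 points ± 3.44 (SD, n = 10). A two-sided exact sign-flip permutation test gave p = 0.00195, the smallest p that 10 libraries can give. Run 3 was set apart for its coverage of these same domains, so this p cannot count as a test on its own. The difference was 4.90 and 10.90 points in the run 1 libraries, 0.58 to 3.54 in run 2 and 0.04 to 0.06 in run 4, where both kinds were kept almost whole. In run 3 it was -12.99 points in hs1262, -14.36 in hs1586 and -18.63 in hs1603, and 6.83 in hs1467. Over all 14 libraries, the set planned for the test, the mean was -1.14 points ± 8.37 (SD, n = 14). The share was higher in 11 and lower in 3, with p = 0.62 in the same exact permutation test. The 4 run 3 libraries thus decide whether a difference is found.

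The median score percentile was higher in the broad domains than in the narrower intervals in all 14 knockout libraries, by 22.07 points ± 5.85 (SD, n = 14), with p = 0.000122 in the exact sign-flip permutation test, the smallest that 14 libraries can give. The difference ranged from 13.84 to 33.64 points. On average it was 30.97 points in run 1, 24.55 in run 2, 22.54 in run 3 and 14.69 in run 4. The libraries were all scored on the same domains and their values differed by run, so they are not 14 independent units. With the mean percentile weighted by bases in place of the highest-scoring peak, the difference over the 14 libraries was also 22.07 points. Both measures are the same wherever a list has a single peak at an interval. Domains and narrower intervals differ in width by the rule, and in the wild-type lists the difference was 23.9 to 31.0 points. The test therefore does not separate rank from width, and a higher rank in the knockout lists was likely beforehand. The difference in the knockout libraries fell to 0.39 points (exact permutation p = 0.0469) when only common intervals of 5 to under 10 kb were used for comparison. Outside run 3 most domains share the top score, so the percentile cannot tell how far both kinds differ in score.

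**Figure D5:**
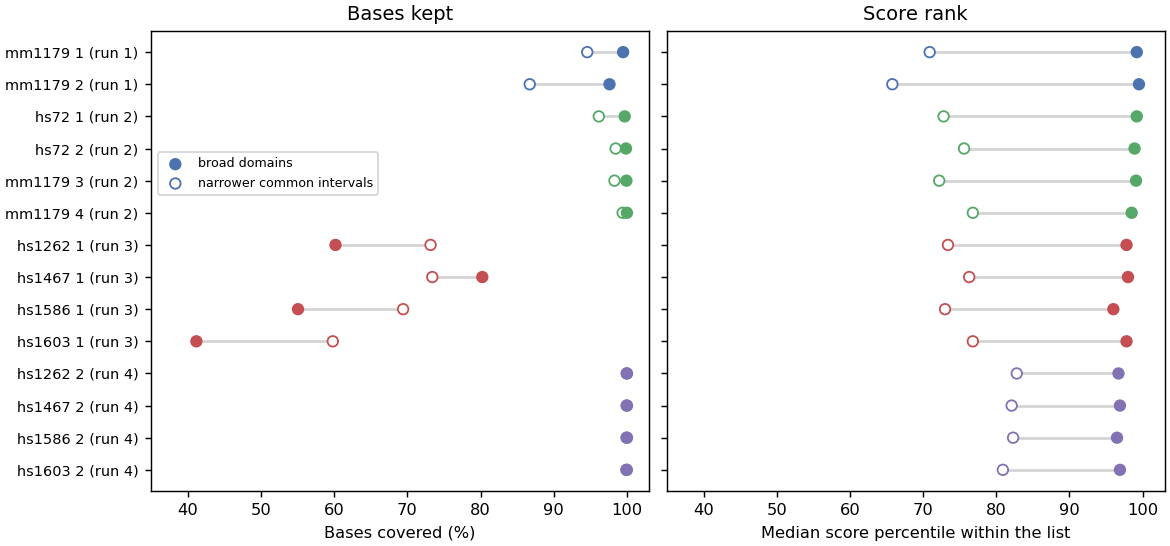
Percent of bases covered (left) and median score percentile within the list (right) in each of the 14 knockout libraries, for the broad domains (filled) and the common intervals of 1 to under 10 kb (open), coloured by run. Filled points lie to the right of open ones in all libraries outside run 3 and in the right panel throughout.

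Each line was also compared domain by domain with the other knockout lines of its run, which leaves mm1179 and hs72 to be compared with each other in run 2, and the remaining lines with each other in runs 3 and 4. A domain counted for a line if every library of the line covered less of it than every library of the other lines in the same run. For hs72 there were 2 of 78 domains, or 2.56%, against 5.79% of all common intervals. The first, chr8:110066744-110078626, was covered to 95.22% and 94.82% in the hs72 libraries and to 100% in mm1179 replicates 3 and 4, but to 96.32% and 90.06% in mm1179 replicates 1 and 2. The second, chr6:49159438-49170893, differed by 0.20 points.

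No domain counted for mm1179, against 0.857% of the common intervals, and none for hs1262 (0.0170%), hs1467 (0.0382%), hs1586 (0.0339%) or hs1603 (0.0763%). The hs72 count was 14 without hs72 replicate 2 and 7 without hs72 replicate 1. It was 7 of 93 domains without WT replicate 1 and 5 of 91 without WT replicate 3, the domains being defined anew from the remaining wild-type lists. The hs1603 count was 7 without its replicate 2, when it rested on run 3 alone. The mm1179 count was 3 without its replicate 4, and the hs1586 count 2 without its replicate 2. The share of all common intervals is not given for these settings, so these counts have no background beside them. Single domains were not tested, since with 2 libraries against 2, or 1 a line and run, none could pass an adjustment over all intervals.

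The rule was applied to other sets of 4 lists. The 4 mm1179 lists shared 74 intervals of at least 10 kb. The median of these was 12208 bp wide and the widest 39843 bp. Of these, 60 (81.1%) overlapped a wild-type domain, and 60 of the 78 wild-type domains (76.9%) overlapped one of them. The 4 run 4 lists shared 321, which overlapped all 78 wild-type domains, while 24.0% of the 321 overlapped one. The 4 run 3 lists shared 140, which overlapped 33 of the 78 (42.3%), and 23.6% of the 140 overlapped a wild-type domain. Most of the broad domains common to run 3, and most of those common to run 4, were therefore not among the wild-type ones. Lists of different covered length are set side by side here.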

How the data were processed

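H3K27ac ChIP-seq peak lists of 18 libraries were used; the 18 input samples were not used here. The build mm9 and the tools MACS 1.4.2, Bowtie 0.12.8, cutadapt 1.1, bcl2fastq 2.17 and CASAVA are recorded per the submitters' processing notes; the use of inputs as control is not given in the sources used here. Position and score of each peak are deposited, with the authors' scores from 40 to 3233. No lists were identical. Peaks of a list did not overlap, so merging changed nothing.

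Intervals covered by all 4 wild-type lists were found, those of at least 10000 bp taken as broad domains and those of 1000 to under 10000 bp as the comparison; 3337 shorter ones were left out. A peak counted from 1 bp of overlap. The members and lists were chosen with earlier results of these data known. Domains named are the 12 widest, the 5 highest by score percentile and the 5 least kept in knockout lists, for each line the one with the largest gap below the other lines, and 3 on each side of the limit, leaving out chromosome 18, which holds 3 domains. Tests were exact permutation tests over libraries, at a threshold of 0.05. Alternatives are given in the closing section. Functions were checked on simulated data, where 200 of 200 intervals removed whole from a list were recovered. Positions are in mm9 and counted from 1. Software was matplotlib 3.10.9, scipy 1.17.1 and numpy 2.4.6 under Python 3.11.15.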

Additional observations from a re-analysis of the deposited data

Results flagged for a closer look

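In 10 of 32 groups of 4 values, the lowest or highest library lay far from the other 3. Chance sets apart about 1 in 20 such groups, and where 3 libraries cover a domain to nearly 100%, any lower value of the other one is set apart. WT replicate 3 had the highest median score percentile of the domains, 99.4. In mm1179, replicate 2 was low at 8 domains. It covered 86.2% of the domain on chromosome 10 from 125402027, 89.0% of that on chromosome 1 from 164109053, 95.1% of that on chromosome 1 from 163903426 and 95.6% of that on chromosome 5 from 120276038. Values closer to the rest were 96.1% on chromosome 2 from 165972365, 99.2% on chromosome 13 from 23834511, 99.3% on chromosome 8 from 59790163 and 99.5% on chromosome 3 from 66773528. Replicate 1 of mm1179 was low at the domain on chromosome 2 from 74506325, at 99.8%.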

How the results depend on the processing

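Of 281 alternative values of 18 results, 33 moved, 10 turned in sign and the other 238 did neither. No value crossed the threshold without a turn in sign. A count or length moved if it changed by more than a fixed ratio, or to or from 0. A line's share kept moved if it changed by at least the SD of its libraries. With 1 of 2 libraries left out a share could not move by that rule, as with hs1603 at 41.16% without replicate 2. Test results were judged by sign and threshold alone, so the percentile difference of 0.39 points is among the 238. The cause of the changes was not tested, except that fewer lists or a lower limit can only widen or add common intervals. Domains numbered 158 (1.82 Mb) from 8000 bp, 19 (0.425 Mb) from 15000 bp, 157 (2.25 Mb) with gaps up to 1000 bp merged and 130 (1.84 Mb) when 3 of 4 wild-type lists sufficed. Those kept to at least 90% in all 14 libraries then numbered 62, 4 and 52 in the first 3 cases, and, from the main domains, 73 without run 3 and 6 at 100% of bases. With gaps merged hs72 kept 99.53%; with 3 of 4 lists mm1179 kept 97.91% and hs72 99.23%, and there were 18 domains low in hs72, 4 in mm1179 and 1 each in hs1603 and hs1586. From 15000 bp there were 0 in hs72. With 1 library left out these counts were between 2 and 14 in hs72, 0 and 7 in hs1603, 0 and 3 in mm1179 and 0 and 2 in hs1586. The share of all common intervals is not given beside these alternative counts.

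The broad minus narrower share kept was 0.762 points over peaks scoring at least 100 (permutation p = 0.661), 0.477 with 3 of 4 lists (permutation p = 0.864) and 2.32 without run 3 (permutation p = 0.00195), and -2.07 to 0.203 with 1 library left out, positive only without hs1603 replicate 1. The mm1179 minus wild-type difference was 0.231 points from 15000 bp and 0.304 with gaps merged, and -0.311 to 0.638 with 1 library left out; no p was under 0.05. The deviations of wild-type and mm1179 libraries of 1 number had correlations of 0.0241 to 0.136. Only 1 of 4 wild-type lists correlated best with its own number, so the numbers do not pair them. The run did matter, since all pairs of the same run had positive correlations and all pairs of different runs negative ones, from -0.131 to -0.0187. With the replicate block the difference was -0.00808 points (exact permutation p = 1), as with labels permuted within runs. How depth acts on these values cannot be seen from the lists and was not tested.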
